A study of Rattus norvegicus with 18 samples.

Results

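miR-192-5p and miR-194-5p are 2 mature microRNAs (miRNAs, short RNAs that guide the silencing of target messages), found by their row names, rno-miR-192-5p and rno-miR-194-5p, in a table of 401 mature rat miRNAs. Small RNA from rat liver had been sequenced as 18 libraries in 3 groups of 6, to examine how liver miRNAs differ with colesevelam or vehicle in obese rats. The groups were obese Zucker diabetic fatty (ZDF) rats given colesevelam, which traps bile acids in the intestine, obese ZDF rats given vehicle, and lean rats, for which the labels name no agent. All were 8 weeks old, and the strain of all 18, the lean rats included, is written ZDF-Leprfa/Crl. The lean group is therefore known by its name and its phenotype label, and its genotype at the leptin receptor gene, which is defective in obese ZDF rats, is not given in the sources used here. Dose and length of treatment are not given there either. The labels do not state that the libraries are of different animals, and p-values here therefore refer to the spread among libraries, part of which may be technical.

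miR-192 and miR-194 are processed from shared primary transcripts. In the rat genome Mir194-2 and Mir192 lie side by side on chromosome 1, and a second copy of the miR-194 gene, Mir194-1, lies beside Mir215 on chromosome 13. The miRNAs are known as abundant products of hepatocytes and of gut and kidney epithelium. In human cells the transcription factor HNF-1α, a regulator of liver and gut genes, and the tumour suppressor p53 are known to drive their transcription.

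The mature sequences (RefSeq, GRCr8 build) are shown because the 2 miRNAs, although made from adjacent hairpins, carry different seeds, the bases 2 to 8 that pair with targets. Capitals mark the seed.
miR-192-5p: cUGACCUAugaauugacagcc
miR-215: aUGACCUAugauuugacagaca
miR-194-5p: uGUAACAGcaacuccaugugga
miR-192-3p: cUGCCAGUuccauaggucacag
miR-194-3p: cCAGUGGGgcugcuguuaucu
miR-192-5p shares its seed with miR-215 and differs from it at 3 of the 21 positions compared. No other row of the deposited table had the seed of miR-192-5p or of miR-194-5p. miR-215 was not analysed here. The GC content was 47.6% for miR-192-5p and 45.5% for miR-194-5p, and their lengths were 21 and 22 bases. The deposited sequences of the 4 rows used (both arms of each miRNA) were identical to those of RefSeq.

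The hairpins, with mature miRNAs in capitals, show why the deposited counts of miR-194-5p cannot be assigned to a locus.
Mir194-2: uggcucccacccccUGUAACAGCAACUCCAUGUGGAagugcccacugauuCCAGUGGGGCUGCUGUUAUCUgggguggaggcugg
Mir194-1: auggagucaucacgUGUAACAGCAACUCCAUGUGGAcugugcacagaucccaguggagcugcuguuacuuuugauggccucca
Mir192: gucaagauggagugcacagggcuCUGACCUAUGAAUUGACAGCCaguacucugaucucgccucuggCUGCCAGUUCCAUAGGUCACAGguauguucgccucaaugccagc
Both miR-194 hairpins give the same 5p arm, and the deposited table lists miR-194-5p at both places, chr1:228619901-228619922 and chr13:107924408-107924429 on the plus strand. It lists miR-192-5p once, at chr1:228620095-228620115 on the plus strand. The genome build of these positions is not given in the sources used here. Of the RefSeq hairpins (GRCr8), Mir194-2 lies at chr1:212994024-212994108 and Mir192 at chr1:212994209-212994318, 100 bases apart, and Mir194-1 lies at chr13:99382716-99382798, all on the plus strand.

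**Figure D1:**
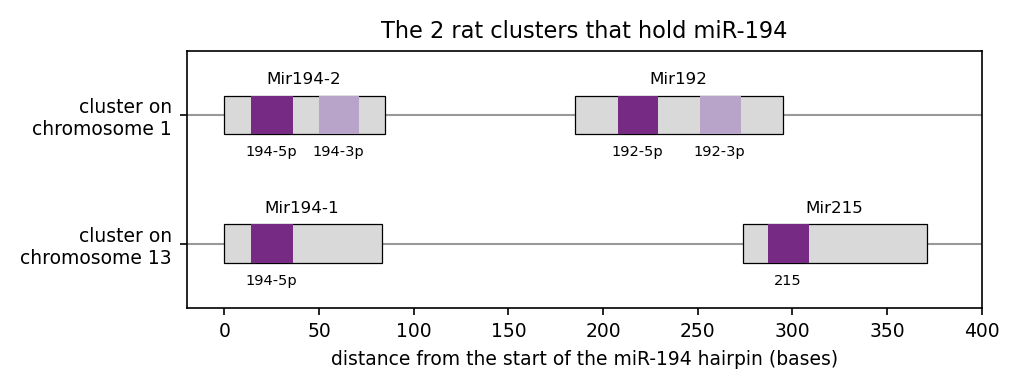
The rat clusters of miR-194 in GRCr8, drawn to scale as distance in bases from the start of the miR-194 hairpin. Grey boxes are hairpins and coloured boxes the annotated mature miRNAs. The hairpins are 100 bases apart on chromosome 1 and 191 bases apart on chromosome 13.

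miR-192-5p was the most abundant miRNA in 18 of 18 libraries. Summed over all libraries rno-miR-192-5p held 27.1% of the counts, and rno-miR-194-5p, ranked 28, held 0.430%. Deep libraries weigh most in these sums, and the mean share of miR-192-5p in a group was 19.96% to 26.0%. In single libraries miR-194-5p ranked between 23 and 29. The next most abundant row after miR-192-5p was miR-22-3p in 14 libraries, miR-378a-3p in 2, and miR-122-5p and miR-148a-3p in 1 each. The lead of miR-192-5p over that row was 1.02-fold in vehicle 1 and 4.56-fold in lean 6, the extremes. The defining miRNA of hepatocytes, miR-122-5p, was present in every library at 1.54% to 9.36% of counts, as liver tissue would have it, and ranked 9 by summed counts.

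The counts behind these values differed widely in depth. Totals per library ranged from 32936 to 122880 in the colesevelam group, from 37909 to 147314 in the vehicle group and from 110353 to 881450 in the lean group. The libraries held 5646 to 281941 counts of miR-192-5p and 129 to 4257 of miR-194-5p. At these counts both members passed the filter on low counts, among 112 of the 401 rows, while miR-192-3p and miR-194-3p did not pass. Intervals per library are Wilson intervals at the 95% level and cover counting error only, because the labels mention no molecular identifiers and copies of 1 molecule may have been counted more than once.

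The share of miR-192-5p in colesevelam libraries was 17.3% at the lowest, 21.6% at the median and 32.1% at the highest. In vehicle libraries these values were 14.3%, 20.2% and 26.1%, and in lean libraries 18.2%, 24.98% and 34.8%. The groups overlapped in every pair, the lean mean being the highest and the vehicle mean the lowest. Counting error was small against this spread: the Wilson interval of the shallowest library, colesevelam 1, ran from 16.9% to 17.7%.

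The mean share of miR-192-5p was 19.96 ± 5.04% in vehicle libraries and 26.0 ± 6.68% in lean libraries (SD, n = 6 each), a difference of −6.06 ± 3.42 percentage points (SE; two-sided exact permutation p = 0.108, adjusted p = 0.394 over the 112 rows tested). It was 23.3 ± 5.70% in colesevelam libraries and 19.96 ± 5.04% in vehicle libraries, a difference of 3.32 ± 3.11 points (exact permutation p = 0.305, adjusted p = 0.649). Between colesevelam and lean the difference was −2.74 ± 3.59 points (exact permutation p = 0.439, adjusted p = 0.599). No neighbours in the order lean, colesevelam, vehicle differed beyond the spread between libraries.

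The share of miR-194-5p in colesevelam libraries was 0.276% at the lowest, 0.394% at the median and 0.515% at the highest. In vehicle libraries it was 0.353%, 0.429% and 0.490%, and in lean libraries 0.333%, 0.389% and 0.483%. The 3 groups overlapped almost wholly, and counting error took up more of the spread than for miR-192-5p, with an interval from 0.237% to 0.320% for the lowest library, colesevelam 6. The mean share was 0.388 ± 0.0786% with colesevelam, 0.421 ± 0.0543% with vehicle and 0.401 ± 0.0709% in lean libraries (SD, n = 6 each). Vehicle differed from lean by 0.0197 ± 0.0365 points (SE; exact permutation p = 0.593, adjusted p = 0.829). Colesevelam differed from vehicle by −0.0325 ± 0.0390 points (exact permutation p = 0.424, adjusted p = 0.699) and from lean by −0.0128 ± 0.0432 points (exact permutation p = 0.771, adjusted p = 0.854).

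**Figure D2:**
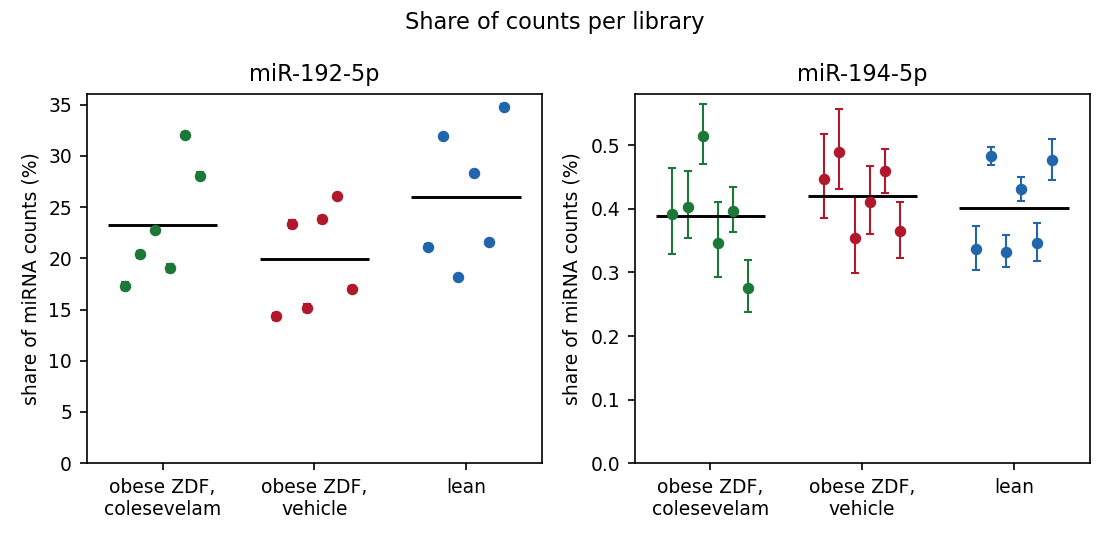
Share of all miRNA counts in percent, by library, for miR-192-5p (left) and miR-194-5p (right). Points are libraries with 95% Wilson intervals (smaller than the points on the left), in the order colesevelam, vehicle, lean, and black lines are group means. Mean shares lie between 19.96% and 26.0% for miR-192-5p and between 0.388% and 0.421% for miR-194-5p, and all groups overlap.

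In these share tests 0 of the 112 rows (0.0%) passed when vehicle was set against lean, with 20 at an unadjusted exact permutation p under 0.05. For colesevelam against vehicle 8.93% of rows passed, and for colesevelam against lean 15.2%. Neither member was among them in any comparison.

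A second measure of level was CPM, the counts divided by a library size scaled by TMM, a method that assumes most miRNAs not to differ. miR-192-5p averaged 249660 ± 90740 CPM with colesevelam, 194898 ± 59045 CPM with vehicle and 267210 ± 88430 CPM in lean libraries (SD, n = 6 each). Its spread between libraries of a group came to 36.3%, 30.3% and 33.1% of the mean. miR-194-5p averaged 4040 ± 738 CPM with colesevelam, 4089 ± 722 CPM with vehicle and 4102 ± 1085 CPM in lean libraries, with a spread of 18.3%, 17.7% and 26.5% of the mean. The 3 means of miR-194-5p thus differed by far less than the SD of any group. Neither member separated 2 groups without overlap, which 2.68% of rows did between vehicle and lean, 5.36% between colesevelam and vehicle and 8.04% between colesevelam and lean.

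Vehicle against lean compares obese with lean liver. The labels name no agent for the lean rats, so obesity and vehicle cannot be told apart here. Depth differed as well, with median totals of 51430 in vehicle and 184888 in lean libraries. miR-192-5p had a log2 fold change of −0.46 ± 0.26 (SE; 95% interval −1.0 to 0.09) and miR-194-5p of −0.01 ± 0.19 (−0.41 to 0.40). Adjusted by Benjamini-Hochberg over all 112 rows, the p of edgeR's quasi-likelihood test was 0.392 for miR-192-5p and 0.999 for miR-194-5p. So 0 of the 2 members were called, by edgeR, DESeq2 or limma-voom and at an unadjusted p under 0.05 alike, where edgeR called 6.25% of all rows, 3.57% as higher and 2.68% as lower. By size of the fold change miR-192-5p ranked 31 and miR-194-5p 110 of the 112 rows.

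Colesevelam against vehicle asks what the resin changed in obese rats. miR-192-5p had a log2 fold change of 0.36 ± 0.26 (95% interval −0.19 to 0.90, edgeR adjusted p = 0.518) and miR-194-5p of −0.01 ± 0.19 (−0.42 to 0.39, edgeR adjusted p = 0.981). Neither was called by edgeR, DESeq2 or limma-voom, where edgeR called 10.7% of all rows, 7.14% as higher and 3.57% as lower. Colesevelam against lean gave −0.10 ± 0.26 for miR-192-5p (95% interval −0.64 to 0.45, edgeR adjusted p = 0.825) and −0.02 ± 0.19 for miR-194-5p (−0.42 to 0.38, edgeR adjusted p = 0.959), where edgeR called 21.4% of all rows, 11.6% as higher and 9.82% as lower. The intervals do not show the levels to be equal: for vehicle against lean, that of miR-192-5p reaches −1.0 on the log2 scale.

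**Figure D3:**
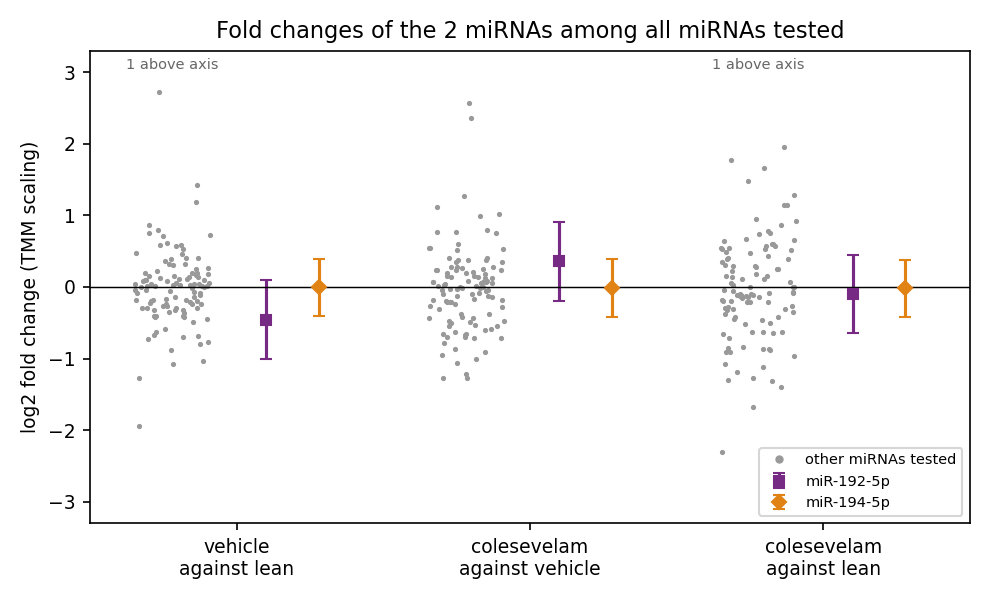
Log2 fold change with TMM scaling in each comparison, for miR-192-5p and miR-194-5p with 95% intervals and for the other miRNAs tested as grey points, of which 1 lies above the axis in each comparison with lean. Every interval of a member includes 0, and miR-194-5p sits between −0.02 and −0.01 in all 3 comparisons.

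The sign of these fold changes depended on the scaling for miR-194-5p in every comparison and for miR-192-5p in both comparisons of colesevelam. For vehicle against lean the sign of miR-192-5p was negative under every scaling run. In the authors' deposited table miR-192-5p has a log2 fold change of −2.83 and miR-194-5p of −2.47 for vehicle against lean, with adjusted p-values of 9.2e-05 and 0.000184. For colesevelam against lean the authors' deposited table gives −2.86 and −2.83, and for colesevelam against vehicle −0.03 and −0.35. Put into edgeR, the authors' size factors moved the median of all 112 rows, 0.01, −0.08 and −0.01 with TMM, to −2.38 for vehicle against lean, −2.76 for colesevelam against lean and −0.36 for colesevelam against vehicle. Relative to that median, miR-192-5p lay at −0.45 and miR-194-5p at −0.09 for vehicle against lean, at −0.10 and −0.07 for colesevelam against lean, and at 0.33 and 0.00 for colesevelam against vehicle. With TMM these distances from the median were −0.46 and −0.011 for vehicle against lean, −0.020 and 0.058 for colesevelam against lean, and 0.37 and −0.0059 for colesevelam against vehicle. A change of size factors shifts all rows nearly alike, so these distances are kept for the most part by construction.

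The ratio of the 2 miRNAs needs no scaling, since both counts come from the same library. Over all counts there were 63.1 counts of miR-192-5p for each count of miR-194-5p, with 32.1 in vehicle 1 and 102 in colesevelam 6 as the extremes. Per 100 counts of miR-192-5p, colesevelam libraries held 0.981 counts of miR-194-5p at the lowest, 1.90 at the median and 2.26 at the highest. Vehicle libraries held 1.72, 2.12 and 3.12, and lean libraries 1.37, 1.56 and 1.83. Of the 6 vehicle libraries 4 lay above every lean library, and 34 of the 36 pairs of a vehicle and a lean library had the higher ratio in vehicle. The lean libraries lay closest together, and the colesevelam libraries spread from below all lean libraries (colesevelam 5 and 6, at 1.24 and 0.981) to above all of them (colesevelam 1, 2 and 3, at 2.26, 1.98 and 2.26).

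The mean ratio was 2.20 ± 0.509 per 100 in vehicle libraries and 1.57 ± 0.151 per 100 in lean libraries (SD, n = 6 each). On the log2 scale vehicle lay 0.46 ± 0.14 above lean (SE), 1.38-fold, with a two-sided exact permutation p of 0.00649 and an adjusted p of 0.0195 over the 3 comparisons. This counts every library as a replicate, but some libraries of a group share a number in their descriptions, whose meaning is not given. With such libraries summed, the log2 difference was 0.48 and the call was lost (exact permutation adjusted p = 0.0952). Colesevelam libraries had 1.76 ± 0.536 per 100 and vehicle libraries 2.20 ± 0.509 per 100, a log2 difference of −0.36 ± 0.24 (exact permutation p = 0.184, adjusted p = 0.276). Against lean, colesevelam lay 0.10 ± 0.21 higher (exact permutation p = 0.630, adjusted p = 0.630). The smallest p these splits of 12 libraries can give is 0.00216.

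**Figure D4:**
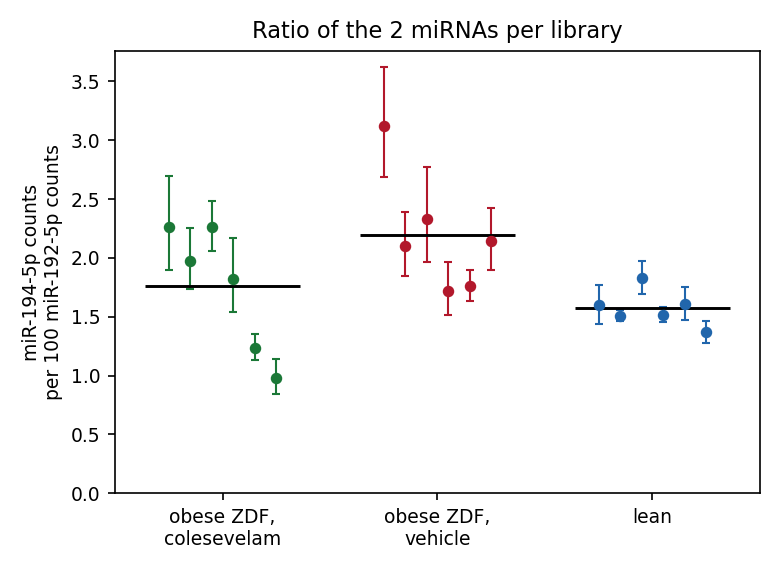
Counts of miR-194-5p per 100 counts of miR-192-5p in each library, with 95% Wilson intervals for counting error and group means as black lines, in the order colesevelam, vehicle, lean. Vehicle libraries lie between 1.72 and 3.12, lean libraries between 1.37 and 1.83, and colesevelam libraries between 0.981 and 2.26.

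The higher ratio in vehicle libraries was not particular to miR-194-5p. Each of the 111 other rows tested was set against miR-192-5p in the same way, a check chosen after the ratio had been seen. The median row lay 0.48 higher in vehicle than in lean libraries on the log2 scale, beside 0.46 for miR-194-5p, and 57 rows had a larger difference. Of these rows 22.5% had an unadjusted exact permutation p under 0.05, as miR-194-5p had. Adjusted over this family its exact permutation p was 0.103, so that its call was lost, while 5.41% of the rows passed. The unadjusted share was 19.8% between colesevelam and vehicle and 22.5% between colesevelam and lean, with 0.0% after adjustment. The level of miR-192-5p is in every one of these ratios, and its own difference between vehicle and lean did not pass the test.

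Depth, and some markers of other liver cell types, differed between the same groups. Median totals were 58439 in colesevelam, 51430 in vehicle and 184888 in lean libraries. Within groups, the library total and the ratio had Pearson r = −0.35 (permutation p = 0.152) and Spearman rho = −0.51 (permutation p = 0.0317) over 18 libraries, adjusted p = 0.152 and 0.0317 over 6 relations. By group r was −0.41 with colesevelam, −0.64 with vehicle and −0.21 in lean libraries (exact permutation p = 0.406, 0.111 and 0.678). Without vehicle 5 and lean 2, the libraries farthest from the median total, r was −0.34. This relation was added after values were seen, and its p-values do not allow for that choice. Vehicle 5, the deepest vehicle library at 147314 counts, had 1.76 per 100. Lean 1, at 110353 counts, had 1.60, and lean 3, at 198460 counts, had 1.83. The leukocyte list had 2 of 5 members tested and a summed share of 0.0794% to 0.125% in colesevelam, 0.0940% to 0.183% in vehicle and 0.167% to 0.325% in lean libraries. The list for bile duct and other epithelium had 2 of 6 tested, at 0.0610% to 0.103% in colesevelam, 0.0452% to 0.119% in vehicle and 0.0724% to 0.225% in lean libraries. The endothelial list, with 2 of 2 tested, held 0.497% to 1.02% in colesevelam, 0.406% to 0.813% in vehicle and 0.614% to 1.22% in lean libraries. The stromal list, with 3 of 5 tested, held 3.22% to 5.06% in colesevelam, 3.57% to 5.24% in vehicle and 3.64% to 4.44% in lean libraries. The erythroid list, with 1 of 4 tested, held 0.00489% to 0.0366% in colesevelam, 0.0126% to 0.0353% in vehicle and 0.0203% to 0.0508% in lean libraries, and its member miR-486 was not analysed here. By edgeR's adjusted p, 1 leukocyte and 1 epithelial row were lower in vehicle than in lean libraries, 1 leukocyte row was lower in colesevelam than in vehicle, and both tested rows of each list were lower in colesevelam than in lean. Of all rows edgeR called 2.68%, 3.57% and 9.82% as lower in these comparisons, in the same order. None of the tested rows of the endothelial, stromal and erythroid lists passed in any comparison. No marker in the table was at 0 over all libraries. The part of depth and of these cell types in the ratio was not tested, and in whole liver fewer cells of a type and less RNA per cell cannot be told apart.

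The SD of the log2 ratio was 0.50 among colesevelam, 0.31 among vehicle and 0.14 among lean libraries, and counting alone would give 0.10, 0.10 and 0.05. Some spread beyond counting is usual between separately made libraries. The deepest libraries, lean 2 and lean 4, had the narrowest intervals, 1.46 to 1.56 and 1.45 to 1.59 per 100.

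Between libraries of a group the 2 miRNAs moved together in the lean group. The correlation of their log2 CPM was r = 0.99 over the 6 lean libraries (rho = 1.0, exact permutation p = 0.00278 for each), r = 0.72 over the vehicle libraries (rho = 0.60, exact permutation p = 0.183 and 0.242) and r = 0.25 over the colesevelam libraries (rho = 0.26, exact permutation p = 0.611 and 0.658). In colesevelam 6 the members parted most, with the second highest share of miR-192-5p of its group, 28.1%, and the lowest of miR-194-5p, 0.276%. With group means subtracted, r was 0.69 and rho 0.68 over all 18 libraries (permutation p = 0.00241 and 0.00234, adjusted p = 0.00482 and 0.00468 over 6 relations). It was 0.60 without colesevelam 5 and lean 2, the libraries farthest from the median of miR-192-5p. These p-values count every library as a replicate, although some libraries of a group share a number in their descriptions. Lean 1 and 2 share one, and miR-192-5p held 21.1% and 31.99% of their counts. The correlations were not run with such libraries summed, so movement between livers was not shown.

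The deviations of miR-192-5p left a gap, with 8 libraries (2 colesevelam, 3 vehicle and 3 lean) at 0.29 or above and 10 at −0.11 or below, which was seen after the fact. With library totals in place of TMM the correlation of the members was 0.40 (permutation p = 0.0982). Within groups the library total and the level of miR-192-5p had r = 0.64 (rho = 0.65, permutation p = 0.00436 and 0.00407, adjusted p = 0.00654 and 0.0061), and 0.55 without vehicle 5 and lean 2. By group that r was 0.81 with colesevelam, 0.50 with vehicle and 0.64 in lean libraries (exact permutation p = 0.0694, 0.339 and 0.186). For miR-194-5p and the library total, r was 0.59 and rho 0.51 (permutation p = 0.00987 and 0.0307, adjusted p = 0.0118 and 0.0317), and 0.47 without the same libraries. By group it was 0.75 with colesevelam, 0.08 with vehicle and 0.76 in lean libraries (exact permutation p = 0.10, 0.961 and 0.0917). Both relations with the library total were added after values were seen, and their p-values do not allow for that choice. The part of depth in the joint movement of the members was not tested.

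**Figure D5:**
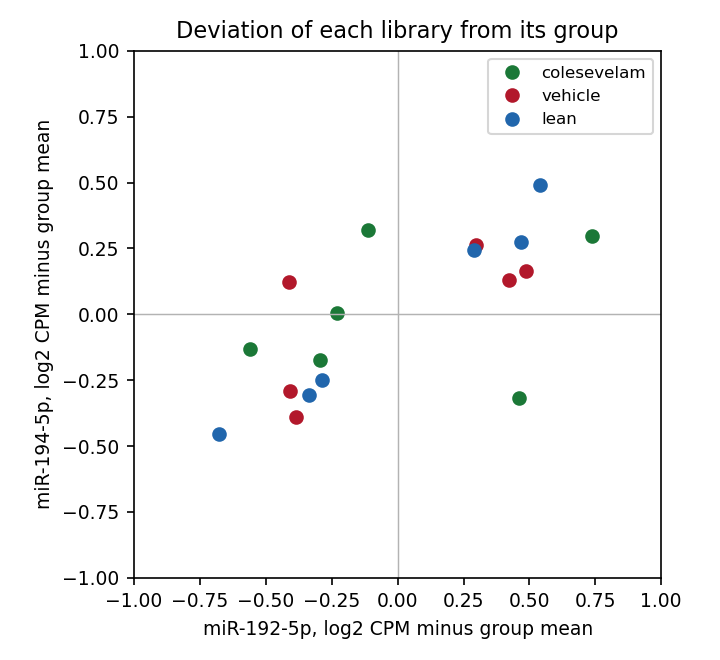
Deviation of each library from its group mean in log2 CPM, miR-192-5p on the horizontal and miR-194-5p on the vertical axis, by group. Lean libraries follow a line (r = 0.99), colesevelam libraries scatter (r = 0.25), and no library lies between −0.11 and 0.29 on the horizontal axis.

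The members were not each other's closest match. Among 111 rows with a mean of at least 100 CPM, miR-194-5p ranked 11 by correlation with miR-192-5p within groups over the 18 libraries, and miR-192-5p ranked 15 by correlation with miR-194-5p. The rows most like miR-192-5p were miR-126a-5p, an endothelial miRNA (r = 0.96), miR-142-5p, a leukocyte miRNA (r = 0.92), miR-101b-3p (r = 0.87), miR-143-3p, a miRNA of smooth muscle and stroma (r = 0.86), and miR-101a-3p (r = 0.83). Those most like miR-194-5p were miR-142-5p (r = 0.83), miR-126a-3p (r = 0.83), miR-101b-3p (r = 0.81), miR-101a-3p (r = 0.80) and miR-3559-5p (r = 0.79). The lowest correlations with miR-192-5p were those of let-7c-5p (r = −0.78), miR-423-3p (r = −0.78) and let-7b-5p (r = −0.86), and those with miR-194-5p were of miR-125a-5p (r = −0.80), let-7b-5p (r = −0.81) and miR-122-5p (r = −0.87). GC contents were 33.3% to 45.5% in the most alike rows and 40.9% to 65.2% in the least alike, so the ranges overlapped. All these values are descriptions, and all rows share library, depth and scaling.

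miR-122-5p, although a hepatocyte miRNA like the members, thus ran opposite to them. Other rows of the hepatocyte-enriched list described below did not all do so. Of the same list, miR-101b-3p and miR-101a-3p ran with miR-192-5p (r = 0.87 and 0.83) and with miR-194-5p (r = 0.81 and 0.80). They are named because both were among the 5 rows most like each member. Correlations of the rest of the list are not given here, so these values do not describe the list. For miR-122-5p the values were as follows. Within groups its r was −0.74 with miR-192-5p (rho = −0.68, permutation p = 0.00054 and 0.00232, adjusted p = 0.00162 and 0.00468) and −0.87 with miR-194-5p (rho = −0.87, permutation p = 1e-05 and 2e-05, adjusted p = 6e-05 and 0.00012). The value 1e-05 is the smallest that these permutations can give. Both relations were added after values were seen, and of 111 rows miR-122-5p was the least correlated with miR-194-5p. The p-values do not allow for that choice, so the relations are descriptions only. Without lean 2 and lean 6, the libraries farthest from the median of miR-122-5p, r was −0.68 and −0.82. By group, r with miR-192-5p was −0.24 with colesevelam, −0.82 with vehicle and −0.99 in lean libraries (exact permutation p = 0.658, 0.0556 and 0.00278), and r with miR-194-5p was −0.97, −0.54 and −0.99 (exact permutation p = 0.0139, 0.269 and 0.00278). In lean 6, where miR-192-5p held 34.8% of counts, miR-122-5p held 2.15%, and in lean 3 miR-192-5p held 18.2% and miR-122-5p 9.36%.

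The minor arms of the 2 hairpins, usually degraded after processing, were rare. miR-192-3p had 124 counts over all libraries, 0.0165% of both arms (95% Wilson interval 0.0138% to 0.0197%), or 6057 counts of the 5p arm for each. miR-194-3p, which the deposited table places at the hairpin on chromosome 1 alone, had 166 counts, 1.38% of both arms (1.182% to 1.60%), or 71.7 counts of the 5p arm for each. The 5p arms of the 2 miRNAs thus differed 63.1-fold in counts, with miR-192-5p higher, while miR-192-3p had 0.747 times the counts of miR-194-3p. In single libraries miR-192-3p had between 0 and 28 counts and miR-194-3p between 1 and 24. A count of 0 allows up to 3 counts.

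No difference in arm share between groups passed the test. miR-194-3p held 1.01% to 3.98% of both arms in colesevelam, 0.741% to 5.43% in vehicle and 0.561% to 2.76% in lean libraries. The mean of vehicle lay 0.674 points above that of lean, and the mean of colesevelam 0.245 points above vehicle and 0.919 points above lean (exact permutation p = 0.450, 0.775 and 0.152, adjusted p = 0.675, 0.775 and 0.476 over 6 tests of arm shares). miR-192-3p held 0% to 0.0350% in colesevelam, 0% to 0.0885% in vehicle and 0.00993% to 0.0334% in lean libraries (exact permutation p = 0.238, 0.182 and 0.630 in the same order of comparisons, adjusted p = 0.476, 0.476 and 0.756). These arm tests were added after the counts had been seen.

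A list of 11 other miRNAs, taken here as hepatocyte-enriched, gives the background for the members. It held both arms of miR-122, miR-148a and miR-802, and miR-22-3p, miR-30a-5p, miR-30e-5p, miR-101a-3p and miR-101b-3p. The libraries are of whole liver, so the enrichment of these rows in hepatocytes was not tested. All 11 of the list were tested, and for vehicle against lean 0 were higher and 0 lower by edgeR's adjusted p, with a median log2 fold change of −0.22 beside 0.01 over all 112 rows. The most abundant were miR-22-3p at 0.31 ± 0.22 (edgeR adjusted p = 0.490), miR-148a-3p at −0.45 ± 0.29 (0.437), miR-122-5p at −0.24 ± 0.32 (0.789) and miR-30a-5p at 0.06 ± 0.18 (0.935). For colesevelam against vehicle 1 of 11 was lower, miR-148a-5p, and none higher, with a median of −0.13 beside −0.01. For colesevelam against lean 2 of 11 were lower, miR-101a-3p and miR-122-3p, and none higher, with a median of −0.30 beside −0.08. These 3, at −0.66 ± 0.21, −0.85 ± 0.29 and −0.85 ± 0.22 (edgeR adjusted p = 0.0411, 0.0380 and 0.00883), were named after their values were seen. Of all rows edgeR called 2.68% as lower for vehicle against lean and 3.57% for colesevelam against vehicle. For colesevelam against lean it called 9.82% as lower. A decrease particular to the list was not tested. The summed share of the list was 23.4 ± 1.67% in colesevelam, 25.4 ± 1.01% in vehicle and 24.9 ± 1.68% in lean libraries (SD, n = 6 each), with smaller SDs than those of miR-192-5p alone.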

How the data were processed

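Per the labels' protocols, RNA came from frozen liver (Norgen kit) and entered an Illumina TruSeq RNA library kit. For each mature miRNA the authors deposited unscaled estimated counts, with log2 fold changes, raw and adjusted p-values and mean scaled counts (averaged over the libraries of both groups) of their DESeq2 comparisons, per the file headers. The tools were Bowtie 1.1.2 and DESeq2 1.18.1, per the submitters' processing notes; build, trimming and counting tool: not given in the sources used here. Both members' counts were whole; 297 other values were not and were rounded. Rows were kept by filterByExpr (minimum count 10, minimum total 15), which left 112 of 401 with 99.5% of counts. TMM factors were 0.814 to 1.19. edgeR 4.0.16 (R 4.3.3) was run as 1 robust quasi-likelihood fit over 18 libraries, at an adjusted p of 0.05. The biological coefficient of variation was 36.2%. Exact two-sided permutation over libraries tested shares and ratios (SciPy 1.17.1, NumPy 2.4.6), correlations by 100000 permutations. The authors' size factors were recovered from their mean scaled counts. Alternatives were DESeq2 1.42.0, limma 3.58.1, other scalings and filters, a replicate block, summed libraries and each library left out. Scripts were tested on simulated data. The members and lists were chosen with earlier results of these data known. Rows named were the members, their other arms, the hepatocyte list's most abundant rows the most abundant rows and the 5 most and 3 least correlated rows. Of the 6 relations, 5 were added after values were seen, as were the arm tests and the ratios of other rows.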

Additional observations from a re-analysis of the deposited data

How the results depend on the processing

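No level was called with TMM, nor on leaving out each library in turn. With the authors' size factors 4 passed. Of 112 rows 110 passed for vehicle against lean (7 with TMM), with miR-192-5p at −2.83 (edgeR adjusted p = 0.000134) and miR-194-5p at −2.47. Colesevelam against lean gave −2.86 and −2.83, where 109 rows passed (24 with TMM). Colesevelam against vehicle turned to −0.027 for miR-192-5p. Uncalled signs also turned. For colesevelam against lean, miR-192-5p was 0.057 with upper-quartile factors and 0.066 with a filter of 50 CPM in 6 libraries, and miR-194-5p 0.10, 0.16 and, with limma-voom, 0.0035. For colesevelam against vehicle, miR-194-5p was 0.037 with upper-quartile factors, 0.064 with miR-192-5p out of the totals, 0.13 with the 50 CPM filter and 0.00050 with a replicate block. For vehicle against lean, miR-194-5p was 0.063 with upper-quartile factors, 0.069 with library totals, 0.019 with limma-voom and 0.026 with the 50 CPM filter, and its share −0.0237 points with miR-192-5p out of the total. Leaving out 1 library gave −0.28 to 0.10 for miR-192-5p and −0.13 to 0.12 for miR-194-5p (colesevelam against lean), −0.075 to 0.14 and −0.13 to 0.10 for miR-194-5p (against vehicle, and vehicle against lean), and −0.0382 to 0.00975 points for its share (colesevelam against lean). The cause of these turns was not tested. Without 1 library, uncalled values also moved by over 1.5 times with no turn: the share of miR-192-5p was 1.56 to 4.55 points (colesevelam against vehicle; lowest without colesevelam 5) and −4.50 to −0.980 points (against lean; nearest 0 without lean 6), that of miR-194-5p −0.0579 to −0.00991 (against vehicle) and 0.00575 to 0.0360 (vehicle against lean), the level of miR-192-5p 0.23 to 0.50 (against vehicle; lowest without colesevelam 5), and the ratio −0.44 to −0.20 (against vehicle; nearest 0 without colesevelam 6) and 0.016 to 0.26 (against lean; highest without colesevelam 6).

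The ratio of vehicle to lean stayed at 0.35 to 0.52 without any 1 library (exact permutation adjusted p = 0.0130 to 0.0390). The call was lost at 0.48 with libraries of one label number summed (exact permutation adjusted p = 0.0952, fewer splits), and at 0.46 adjusted over the ratios of all rows (0.103), chosen after seeing the data. With the replicate block the value was 0.46 (exact sign flips p = 0.0313, adjusted p = 0.0938), but 0.0313 is the smallest p that 6 pairs can give, so this says nothing about stability. Libraries of the same replicate number in different groups did not all deviate together (r = −0.60 to 0.55), so these numbers were not taken as pairs. Label numbers were not checked so. The correlation of the members was 0.40 with library totals (permutation p = 0.0982) and 0.63 to 0.83 without any 1 library.

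Call counts moved by over 1.5 times only for colesevelam against vehicle, 12 by TMM (8 higher, 4 lower), and with the authors' factors (above). The 12 became 6 with upper-quartile factors (all higher), 2 with the authors' and 7 unfiltered, with the block, summed libraries or without vehicle 6. Beside the authors' factors, 3 scalings moved the median of all rows by over 0.1, to −0.12 with library totals (colesevelam against vehicle), −0.098 with miR-192-5p out of the totals (vehicle against lean) and 0.024 with upper-quartile factors (colesevelam against lean, −0.078 with TMM). With library totals the split was 7 higher and 7 lower for colesevelam against vehicle, and 11 and 18 for colesevelam against lean beside 13 and 11 with TMM. With miR-192-5p out of the totals it was 8 and 0, and 11 and 14.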

Other observations

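In 5 pairs of libraries the sample descriptions carry the same middle number, whose meaning is not given in the sources used here. Counts of miR-194-5p per 100 of miR-192-5p were 1.98 and 2.26 in colesevelam 2 and 3, 1.82 and 1.24 in colesevelam 4 and 5, 2.33 and 1.72 in vehicle 3 and 4, 1.60 and 1.51 in lean 1 and 2, and 1.52 and 1.60 in lean 4 and 5. The shares of miR-192-5p in the same pairs were 20.4% and 22.8%, 19.0% and 32.1%, 15.2% and 23.8%, 21.1% and 31.99%, and 28.4% and 21.6%. The deeper library of each pair had the higher share of miR-192-5p and of miR-194-5p, in 5 of 5 pairs. None of the 15 sets of 6 values examined (share, CPM and ratio of the members in each group) held a library that stood apart by Dixon's criterion.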
